A study of Mus musculus with 16 samples.

Results

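The genes described here are those of the cytosolic ribosomal proteins, the protein parts of the ribosomes that translate nuclear-encoded mRNA. They were chosen by symbol alone, as every gene whose probe sets carry a single annotated symbol of the form Rpl or Rps plus a number, Rplp0 to Rplp2, or Rpsa, with at most 1 of the suffix letters a, x, l or y. The rule leaves out the S6 kinases, whose symbols open with Rps6k, and used no measured value. It found 64 genes among the 22180 genes named on the array, measured by 104 of its 41345 probe sets. Of these genes, 61 were bright enough to be tested, in all 4 groups alike, and 3 gene copies with little signal were not (Rpl10l at a mean log2 signal of 2.56, Rpl32l at 2.59 and Rpl3l at 3.33).

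The cells were regulatory T cells (Treg cells), the CD4 T cells that restrain immune responses, taken from C57BL/6 mice and measured on 16 arrays in 4 groups of 4. All mice carried a Cre recombinase expressed from Foxp3, the gene that defines Treg cells, together with floxed Atg7, which encodes an enzyme needed to build autophagosomes. Controls had 1 floxed allele (Atg7+/fl with Foxp3-Cre, written Atg7+/-) and so had lost 1 copy themselves, while the other mice had floxed alleles alone (Atg7fl/fl with Foxp3-Cre, written Atg7-/-). Each genotype had an untreated group and a group injected with rapamycin, an inhibitor of the kinase complex mTORC1, at 4 mg per kg on each of 5 days. No vehicle injection of the untreated mice is stated. CD4+ Foxp3-YFP+ cells from spleen and peripheral lymph nodes were sorted and then given 4 h of stimulation through CD3 and CD28 by antibodies bound to the plate, so all 16 arrays show activated cells. The ages of the mice are not stated.

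A ribosome joins a small subunit, which reads the mRNA, to a large subunit, which makes the peptide bond, and most ribosomal proteins are present in a single copy per ribosome. The stalk of the large subunit, built on Rplp0 and carrying Rplp1 and Rplp2, recruits elongation factors. Mammalian ribosomal protein mRNAs open with a run of pyrimidines led by C, the 5′ TOP motif, and mTORC1 controls their translation through the motif, with LARP1 as a repressor that binds it. That control acts on the use of the mRNA by ribosomes more than on its amount, and arrays measure the amount.

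The sequences around the annotated starts of some members show what that motif looks like. RefSeq promoter windows (mouse build GRCm38.p6) were matched for 49 of the 64 members by symbol, and 30 bases before and 30 bases from the start are printed, 5′ to 3′ on the gene's strand. Capitals mark the longest run within those bases that opens with C and holds only C and T, over 4 bases long. The first set shows members whose run lies at or across the start, Rps6 on the minus strand of chr4:86857338-86857397, Rpl28 on the plus strand of chr7:4792935-4792994, Rpl35 on the minus strand of chr2:39005102-39005161 and Rpl38 on the plus strand of chr11:114668550-114668609:
Rps6: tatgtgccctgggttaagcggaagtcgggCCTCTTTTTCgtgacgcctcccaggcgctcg
Rpl28: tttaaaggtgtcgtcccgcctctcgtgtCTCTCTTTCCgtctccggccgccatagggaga
Rpl35: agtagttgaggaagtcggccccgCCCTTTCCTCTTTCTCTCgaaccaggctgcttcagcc
Rpl38: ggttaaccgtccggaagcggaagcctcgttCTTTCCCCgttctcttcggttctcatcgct

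The next set holds the members that rapamycin changed in both genotypes and that have a window. Rplp0 lies on the plus strand at chr5:115559437-115559496, Rps13 on the minus strand at chr7:116334161-116334220 and Rps4x on the minus strand at chrX:102189362-102189421, and these rose. Rpl11 lies on the minus strand at chr4:136053364-136053423, Rpl26 on the plus strand at chr11:68901536-68901595 and Rps15 on the plus strand at chr10:80292401-80292460, and these fell:
Rplp0: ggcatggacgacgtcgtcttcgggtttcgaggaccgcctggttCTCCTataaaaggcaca
Rps13: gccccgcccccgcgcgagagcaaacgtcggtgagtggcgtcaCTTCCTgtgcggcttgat
Rps4x: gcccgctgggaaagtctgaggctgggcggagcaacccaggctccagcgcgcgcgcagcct
Rpl11: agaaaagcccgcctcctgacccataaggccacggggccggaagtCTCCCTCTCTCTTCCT
Rpl26: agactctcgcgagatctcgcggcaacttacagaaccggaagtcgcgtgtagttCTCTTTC
Rps15: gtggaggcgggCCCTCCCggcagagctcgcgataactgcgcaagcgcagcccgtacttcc

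The annotated start was a C leading at least 5 such bases in 22.4% of the 49 members, against 3.0% of 27025 genes with a window. These shares include runs that had opened before the start and crossed it. A run of at least 5 bases opened within 5 bases of the start in 36.7% of members and 18.6% of all genes. One of at least 8 bases lay anywhere in the 60 printed bases in 59.2% and 19.9%. Searched on both strands over 250 bases before to 50 after the start, the ETS family motif CCGGAAG was found in 44.9% of members and 9.9% of all genes. The TATA box letters TATAAA were found in 10.2% and 15.7%, and the E box CACGTG in 8.2% and 8.1%. A match describes letters in this window and an annotated start can miss the true one by some bases. Under rapamycin, members with and without a run of 8 bases had like medians, 0.064 (28 genes) and 0.0565 (18 genes) on the log2 scale in Atg7+/- cells, and 0.1304 and 0.141 in Atg7-/- cells.

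The values are log2 signals, taken as base 2. The sorted cells carried the Treg markers on every array, with means over the 16 arrays from 8.60 for Cd4 to 12.06 for Il2ra and 11.11 for Foxp3. Of 23 markers of other cells 19 were matched, with means from 3.05 for Ms4a1 of B cells to 7.61 for Pecam1, listed for stromal cells. None is at 0 on this scale. Their summed linear signal was 781.4 to 877.1 in untreated Atg7+/- cells, 972.5 to 1125 in untreated Atg7-/- cells, 728.5 to 857.9 in Atg7+/- cells after rapamycin and 701.8 to 1372 in Atg7-/- cells after rapamycin. The highest, 1372, was replicate 3 of the last group, whose mean over the 61 members was also the highest of all arrays at 9.75. The lowest, 701.8, was replicate 1 of the same group, whose mean over the members was the next highest at 9.72. Which cells gave the marker signals, Treg cells or others, and the part of other cells in the results were not tested. Atg7 itself was lower in Atg7-/- cells by a log2 difference of -0.28 without and -0.30 with rapamycin (adjusted p of 0.299 and 0.232 in limma, neither past 0.05), in a design where controls lack 1 copy and where it is not known which part of the gene the probes read. Foxp3 fell by 0.40 in untreated Atg7-/- cells (adjusted p of 0.0355).

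Signals of the tested members had a median of 11.1, against 5.56 over all 16760 genes tested, and 34 of the 61 stood at 10 or above, where 486 of all genes did. The brightest 5 were Rplp1, a stalk protein, at 12.68, Rps18 at 12.57, Rps12 at 12.55, Rpl13 at 12.48 and Rpl27 at 12.45. The dimmest 5 tested were Rpl30 at 4.17, Rps16 at 4.60, Rps15 at 4.71, Rpl27a at 5.33 and Rpl39l, a copy of Rpl39, at 5.40. Apart from Rpl39l these are parts of every ribosome, so a probe set's signal is not a measure of one member's amount against another's. The bright members were also the steadier ones, with a median SD over the 16 arrays of 0.1035, against 0.204 for the 27 dimmer members.

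The rule covers 57 of the 80 standard ribosomal protein genes, 35 of 47 in the large subunit and 22 of 33 in the small, and 7 gene copies or relatives make up the rest. Of these relatives, Rpl6l and Rps4l are annotated as pseudogenes. Most of the other 23 standard genes either share their probe sets with another symbol or are not listed under a symbol here. Fau and Rps3a1 have probe sets of their own but symbols of another form. Rps3a1, a small-subunit gene, rose by 0.37 ± 0.109 (SE) under rapamycin in Atg7-/- cells (adjusted p of 0.0232) and differed by 0.13 in Atg7+/- cells (adjusted p of 0.463), while Fau differed by 0.09 and 0.08 (adjusted p of 0.329 and 0.47).

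**Figure D1:**
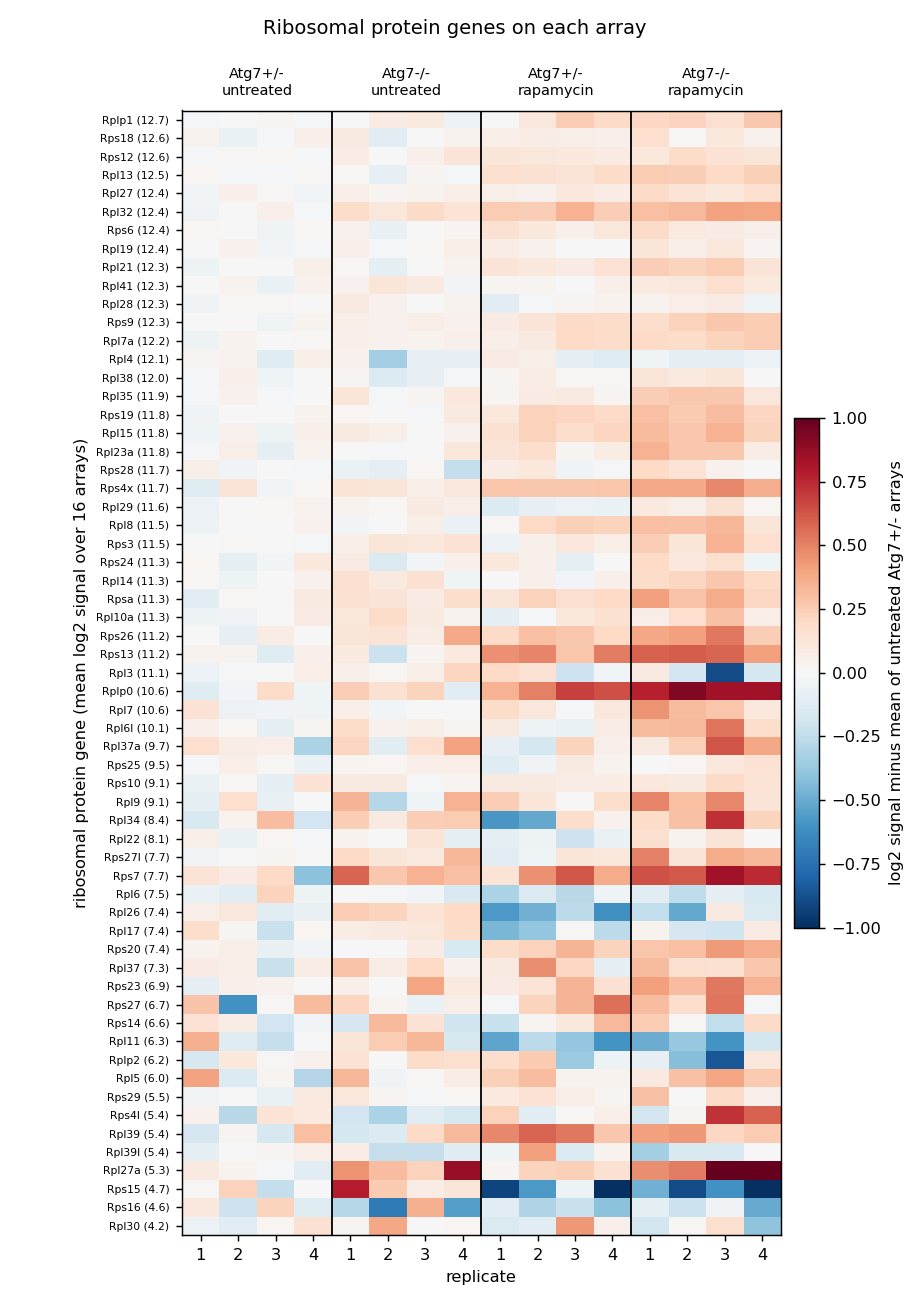
Each row is 1 of the 61 tested members, ordered by mean log2 signal (in brackets), and each column 1 array, in 4 groups of 4 replicates. Colour is the log2 signal minus the mean of the untreated Atg7+/- arrays, cut at 1 in either direction. The upper rows turn faintly red under rapamycin, most in Atg7-/- cells, and the strongest colours lie in a few rows such as Rplp0, Rps13, Rpl27a and Rps15.

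Without treatment, no ribosomal protein gene passed the test between the genotypes. None of the 61 was called, meaning an adjusted p under 0.05 in limma (Benjamini-Hochberg over all 16760 genes), where 3.14% of all genes were (1.75% higher and 1.39% lower). At an unadjusted p under 0.05 there were 2910 of the 16760 genes and 3 of the 61 members, all 3 higher in Atg7-/- cells. They were Rps7, a small-subunit protein that also binds Mdm2, at a log2 difference of 0.38 ± 0.129 (SE, adjusted p of 0.128), Rpl27a at 0.46 ± 0.162 (0.131) and Rpl32 at 0.15 ± 0.0679 (0.243). The median difference of the 61 was 0.0509, against 0.0222 over all genes, with 49 members above 0 and 12 below. In 8 of the 61 members all 4 Atg7-/- arrays lay above all 4 Atg7+/- arrays and in none below. Of all 16760 genes, 1369 were apart upwards and 1001 downwards, 14.1% in either direction. Whether each replicate is a mouse of its own is not stated, and the p-values speak only of the spread among these arrays, part of which may be technical.

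Under rapamycin, the Atg7-/- cells had 2 members higher than the Atg7+/- cells and none lower, 3.28% of the 61 beside 3.24% of all genes (1.91% higher and 1.33% lower). The 2 were Rpl27a and Rpl6l. The median difference of the members was 0.0884, against 0.0166 over all genes, with 52 above 0 and 9 below. In 14 of the 61 members the Atg7-/- arrays were all higher and in none all lower. Of all 16760 genes, 1007 were apart upwards and 631 downwards, 9.77% in either direction.

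Rpl27a, a large-subunit protein, stood after rapamycin at 4.99, 5.18, 5.20 and 5.12 in Atg7+/- cells and at 5.43, 5.47, 6.19 and 6.09 in Atg7-/- cells. Without treatment it stood at 5.05, 5.0, 4.94 and 4.86 in Atg7+/- cells and at 5.41, 5.27, 5.19 and 5.83 in Atg7-/- cells. The genotypes did not overlap in either setting, and the higher values after rapamycin came from replicates 3 and 4. The difference under rapamycin was 0.67 ± 0.162 on the log2 scale, 1.59-fold, with an adjusted p of 0.0317. That call was lost in the fit of the 2 groups alone. It was also lost without replicate 1, 2 or 4 of the Atg7+/- arrays or replicate 3 or 4 of the Atg7-/- arrays. Differences ran from 0.54 to 0.80 over all alternatives.

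Rpl6l, a relative of the large-subunit gene Rpl6, is annotated as a pseudogene. It stood after rapamycin at 10.04, 9.90, 9.88 and 10.02 in Atg7+/- cells and at 10.26, 10.28, 10.48 and 10.13 in Atg7-/- cells. The groups did not overlap. The difference was 0.33 ± 0.0847 (adjusted p of 0.0429), and 19 of 27 alternatives lost the call, with differences between 0.26 and 0.39. Rpl34, a large-subunit protein, and Rps27l, a copy of Rps27 that is a p53 target in human cells, came next at 0.58 ± 0.164 (adjusted p of 0.061) and 0.31 ± 0.0907 (0.0648) and were not called.

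The mitochondrial ribosomal proteins, which serve the separate ribosomes of mitochondria, gave other counts. Of 71 such genes, 18 rose and none fell in Atg7-/- cells under rapamycin (25.4% beside 3.24% of all genes), with a median difference of 0.34. Without rapamycin 4 rose and 1 fell (7.04% beside 3.14% of all genes), with a median of 0.22. The difference between the 2 families was not tested.

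**Figure D2:**
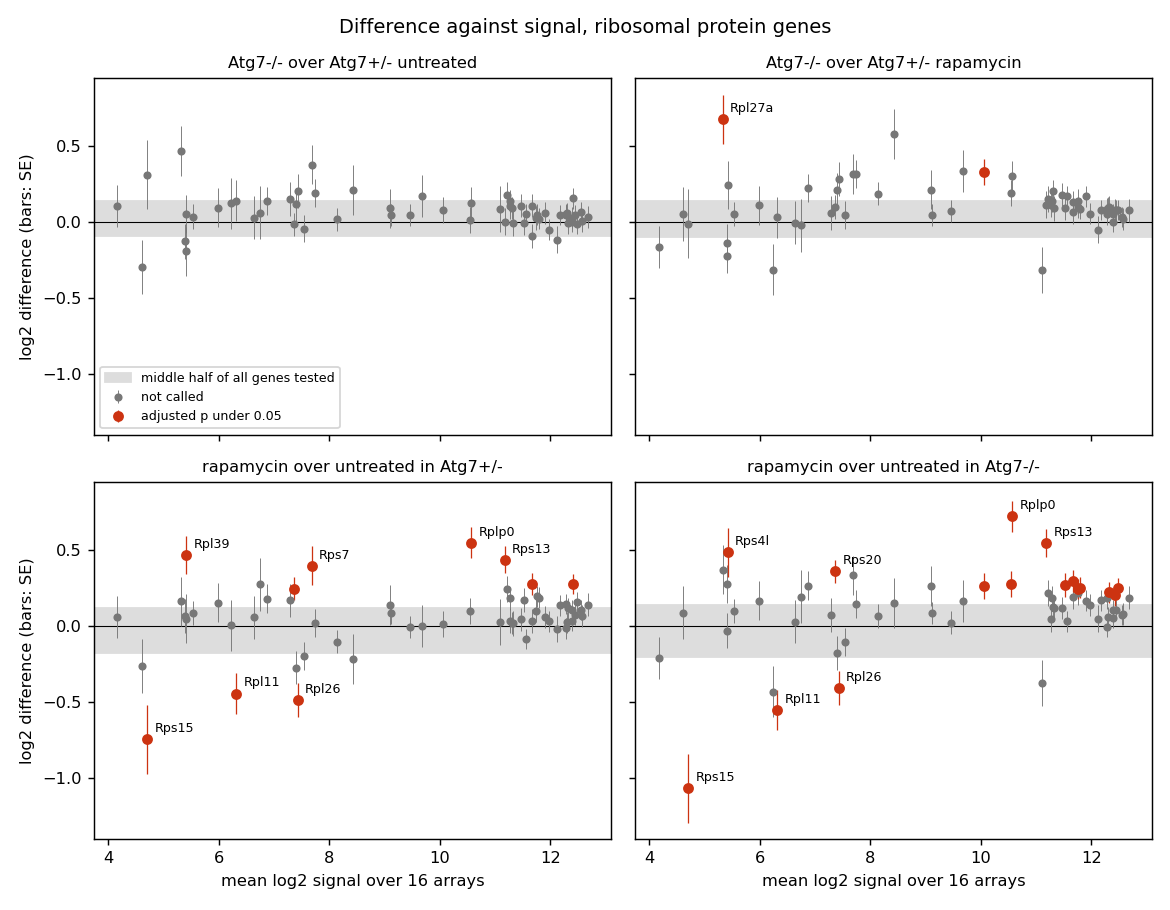
Each point is 1 of the 61 members, with its mean log2 signal on the x axis and its log2 difference with SE on the y axis, in the 4 pairwise comparisons. Red points were called and the grey band holds the middle 50% of all genes tested. Under rapamycin the bright members at the right lie mostly a little above 0, and the 3 called falls stand below 8.

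In Atg7+/- cells rapamycin raised 7 of the 61 members and lowered 3. The risers were Rplp0, Rpl39, Rps13, Rps7, Rpl32, Rps4x and Rps20, by 0.25 to 0.55 on the log2 scale, and the fallers Rps15, Rpl26 and Rpl11, by -0.74 to -0.44. The 10 calls are 16.4% of the members, near the 14.1% of all genes called, so the count itself does not set the members apart. Of all genes, 6.03% rose and 8.11% fell. The median of the members was 0.0658 beside -0.0345 over all genes, with 49 above 0 and 12 below. Groups were apart upwards in 17 of the 61 members and downwards in 2. Of all 16760 genes, 1616 were apart upwards and 2194 downwards, 22.7% in either direction. Without replicate 1 of the untreated arrays 3 members rose and 1 fell, and without its replicate 4 or without replicate 2 or 4 of the treated arrays 6 were called. Centred on array medians 3 rose and 3 fell, and after removal of each array's length trend 12 rose and 2 fell.

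In Atg7-/- cells rapamycin raised 13 members and lowered 3, 26.2% beside 20.0% of all genes. The 3 that fell were again Rps15, Rpl11 and Rpl26. Over all genes 8.83% rose and 11.1% fell. The members' median was 0.145 beside -0.0399 over all genes, with 51 above 0 and 10 below. Groups were apart upwards in 20 members and downwards in 3, where 20.4% of all genes had groups apart. Without replicate 3 of the rapamycin group, the array with the highest summed signal of other cells' markers, 9 members rose and 3 fell, with a median of 0.118. Without replicate 2 of that group 8 rose and 2 fell, with quantile normalization 8 rose and 4 fell, and in a fit of these 8 arrays alone 4 rose and 3 fell. In bulk RNA, a change in the share of cells that make an mRNA and a change per cell cannot be told apart.

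By subunit, the large-subunit members numbered 3 risers and 2 fallers of 35 in Atg7+/- cells and 7 and 2 in Atg7-/- cells, with medians of 0.058 and 0.137. These calls are 14.3% and 25.7% of the 35, beside 14.1% and 20.0% of all genes. The small-subunit members numbered 4 risers and 1 faller of 22 in each genotype, with medians of 0.104 and 0.148. Both subunits thus hold members of each direction.

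Of the stalk proteins, Rplp0 showed the largest rise in both genotypes. Its brightest probe set read 10.07, 10.16, 10.37 and 10.14 in untreated Atg7+/- cells and 10.53, 10.69, 10.87 and 10.83 after rapamycin. In Atg7-/- cells it read 10.43, 10.34, 10.41 and 10.08 untreated and 10.96, 11.11, 11.03 and 11.03 after rapamycin. Every rapamycin array was above every untreated array of either genotype. The rise was 0.55 ± 0.10 (SE, 1.46-fold, adjusted p of 0.00201) in Atg7+/- cells and 0.72 ± 0.10 (1.65-fold, 0.000124) in Atg7-/- cells.

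The other probe set of Rplp0 went the opposite way. At a mean of 6.84 it fell by 0.56 in Atg7+/- cells (adjusted p of 0.00622 with each probe set as a feature) and by 0.45 in Atg7-/- cells (0.0166). The mean of both probe sets differed by -0.00895 and 0.136 and was not called in either genotype (adjusted p of 0.959 and 0.291). The direction of Rplp0 therefore depends on the probe set, and which of them reads the expressed gene and which a copy was not tested. The other stalk genes were not called. Rplp1 differed by 0.14 ± 0.0747 and 0.18 ± 0.0747 (adjusted p of 0.228 and 0.0897), and Rplp2 by 0.00 ± 0.167 and -0.43 ± 0.167 (0.99 and 0.0759).

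Rps13, a small-subunit protein, rose in both genotypes. It read 10.97, 10.98, 10.82 and 10.99 in untreated Atg7+/- cells and 11.39, 11.43, 11.22 and 11.45 after rapamycin. Its Atg7-/- arrays read 11.04, 10.72, 10.96 and 11.04 untreated and 11.52, 11.54, 11.52 and 11.35 after rapamycin. The treated arrays were above the untreated ones throughout. The rise was 0.43 ± 0.0895 (adjusted p of 0.00439) and 0.54 ± 0.0895 (0.000508), and no alternative lost either call.

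Rps20, a protein of the small subunit's head, read 7.26, 7.28, 7.15 and 7.20 in untreated Atg7+/- cells and 7.40, 7.45, 7.56 and 7.45 after rapamycin. The Atg7-/- values were 7.22, 7.23, 7.30 and 7.07 untreated and 7.50, 7.52, 7.65 and 7.59 after rapamycin. The groups did not overlap in either genotype. The rise was 0.25 ± 0.077 (adjusted p of 0.0412) and 0.36 ± 0.077 (0.00354), the first of which 13 of 27 alternatives lost. Its dimmer probe set, at 4.01, differed by 0.34 and -0.32 (adjusted p of 0.201 and 0.189), so that the mean of its probe sets was not called (0.29 and 0.0175, adjusted p of 0.0507 and 0.919).

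Rps4x, the X-linked gene of a small-subunit protein, and Rpl32, of the large subunit, also rose in both genotypes. Rps4x read 11.35 to 11.61 in untreated Atg7+/- cells and 11.75 on all 4 arrays after rapamycin, a rise of 0.27 ± 0.0728 (adjusted p of 0.0185). Its Atg7-/- arrays read 11.54 to 11.62 untreated and 11.84 to 11.96 after rapamycin, a rise of 0.29 ± 0.0728 (0.00889). Its groups did not overlap, and in Atg7-/- cells no alternative lost the call, while in Atg7+/- cells median centring and the fit without untreated replicate 1 did. Rpl32 rose by 0.27 ± 0.0679 (0.0125) and 0.20 ± 0.0679 (0.0455), and median centring lost the first call and 19 of 27 alternatives the second.

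**Figure D3:**
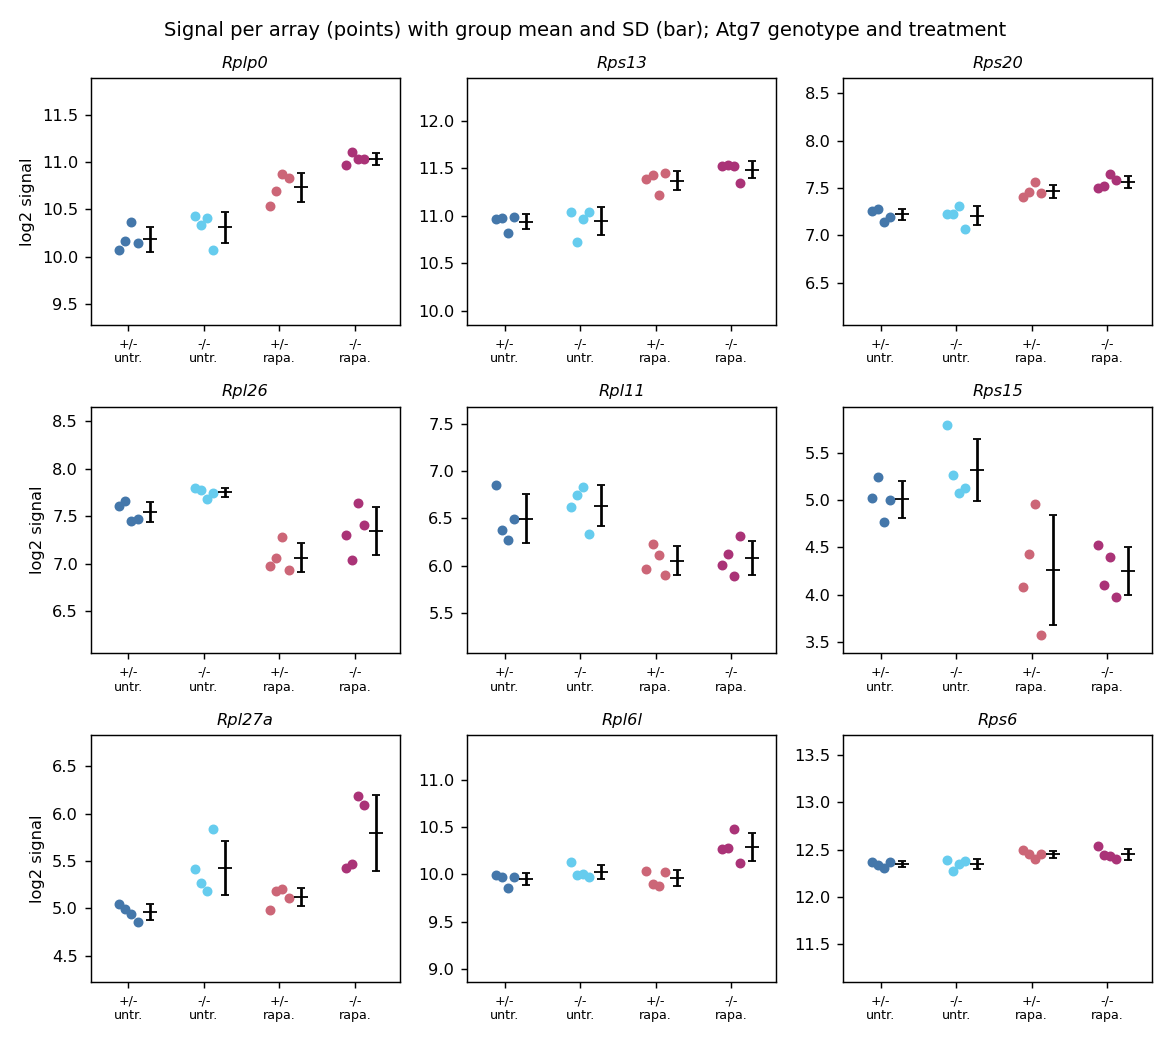
Log2 signal of 9 members on each of the 16 arrays (points), with the group mean and SD (bars), 4 arrays per group, on y axes of equal span. Rplp0, Rps13 and Rps20 were higher after rapamycin and Rpl26, Rpl11 and Rps15 lower, while Rpl27a and Rpl6l were highest in Atg7-/- cells after rapamycin and Rps6 moved by 0.10.

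Among the fallers, Rpl26 is a large-subunit protein near the exit of the peptide tunnel that in human cells also binds p53 mRNA. It read 7.61, 7.66, 7.44 and 7.47 in untreated Atg7+/- cells and 6.98, 7.06, 7.28 and 6.93 after rapamycin. The Atg7-/- arrays gave 7.80, 7.77, 7.69 and 7.75 untreated and 7.30, 7.03, 7.63 and 7.40 after rapamycin. The treated arrays were below the untreated ones in both genotypes, with replicate 3 of the Atg7-/- arrays closest. The change was -0.48 ± 0.112 (adjusted p of 0.00842), a call no alternative lost, and -0.41 ± 0.112 (0.0159), a call lost with median centring and without replicate 2 of the treated arrays.

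Rpl11 and Rpl5 bind the smallest ribosomal RNA of the large subunit together, and as a free complex they inhibit Mdm2, the ligase of p53, when ribosome assembly fails. Rpl11 read 6.86, 6.38, 6.27 and 6.49 in untreated Atg7+/- cells and 5.97, 6.23, 6.11 and 5.90 after rapamycin. The Atg7-/- values were 6.62, 6.75, 6.83 and 6.34 untreated and 6.00, 6.12, 5.90 and 6.31 after rapamycin. The groups did not overlap, though only narrowly. The change was -0.44 ± 0.134 (adjusted p of 0.0348) and -0.55 ± 0.134 (0.00788, a call lost in no alternative). The Atg7+/- call was lost with the length trend removed. It was also lost without replicate 1 or 4 of the untreated or replicate 1, 3 or 4 of the treated arrays. Rpl5 differed by 0.15 ± 0.129 and 0.17 ± 0.129 (adjusted p of 0.471 and 0.386) and was not called.

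Rps15, a protein of the small subunit's head needed in human cells to export its precursor from the nucleus, showed the largest fall of all members from a dim probe set. It read 5.02, 5.24, 4.76 and 5.0 in untreated Atg7+/- cells and 4.09, 4.43, 4.96 and 3.57 after rapamycin. Its signals in Atg7-/- cells were 5.79, 5.27, 5.08 and 5.12 untreated and 4.52, 4.11, 4.40 and 3.97 after rapamycin. The Atg7+/- groups overlapped through replicate 3 of the treated arrays, and the Atg7-/- groups did not. The change was -0.74 ± 0.226 (1.67-fold lower, adjusted p of 0.0349) and -1.06 ± 0.226 (2.09-fold lower, 0.00324). The Atg7+/- call was lost in 7 of 27 alternatives, with differences from -0.98 to -0.51. These were the fit of the 8 arrays alone and those without untreated replicate 1, 2 or 4 or treated replicate 1, 2 or 4. No alternative lost the Atg7-/- call.

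Rps6, the small-subunit protein that S6 kinase phosphorylates below mTORC1, was not called. It read 12.37, 12.34, 12.31 and 12.37 in untreated Atg7+/- cells and 12.50, 12.45, 12.40 and 12.46 after rapamycin, and 12.39, 12.28, 12.35 and 12.38 against 12.54, 12.44, 12.43 and 12.40 in Atg7-/- cells. The treated arrays were above the untreated ones by a small step. The difference was 0.10 ± 0.0686 in each genotype (adjusted p of 0.342 and 0.299).

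The remaining calls belonged to 1 genotype each. In Atg7+/- cells Rpl39, a small protein that lines the peptide tunnel, rose by 0.46 ± 0.126 (adjusted p of 0.0203), with arrays from 5.03 to 5.50 untreated and 5.47 to 5.78 treated, a call lost in 4 of 27 alternatives. Rps7 rose by 0.39 ± 0.129 (0.0495), from 6.90 to 7.51 untreated to 7.45 to 7.93 treated, a call lost in 15 of 27 alternatives. Both overlapped between their groups.

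In Atg7-/- cells Rps4l, a relative of Rps4x annotated as a transcribed pseudogene, rose by 0.48 ± 0.16 (adjusted p of 0.0411). It read 5.18, 5.06, 5.28 and 5.22 untreated and 5.20, 5.40, 6.10 and 5.97 after rapamycin, so replicates 3 and 4 held the high values. The call was lost in 10 of 27 alternatives, among them the fits without treated replicate 3 or 4, without any 1 of the untreated arrays, and with median centring or quantile normalization. Rpl7, of the large subunit, rose by 0.28 ± 0.0846 (0.0286) in its brightest probe set, but its dimmer one differed by -0.27 (0.121) and their mean by 0.00302 (0.985). Rpl8, which sits near the peptidyl transferase centre, rose by 0.27 ± 0.0775 (0.0216) and Rpl6l by 0.26 ± 0.0847 (0.0384), calls lost in 3 and 10 of 27 alternatives. The other risers were Rps19, whose human gene is mutated in Diamond-Blackfan anaemia, Rpl13, Rpl15 and Rpl21, by 0.22 to 0.25. With the mean of probe sets Rps19 differed by 0.157 (adjusted p of 0.103) and Rpl21 by 0.102 (0.307) and neither was called. The call of Rpl21 was lost in 10 of 27 alternatives, those of Rps19 and Rpl15 in 3 and that of Rpl13 in 1.

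The other 42 tested members were called in none of the 4 comparisons between groups. Their rapamycin differences ran from -0.27 to 0.27 in Atg7+/- cells and from -0.43 to 0.26 in Atg7-/- cells, and their genotype differences from -0.30 to 0.21 untreated and from -0.32 to 0.58 under rapamycin.

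The 2 rapamycin comparisons use different arrays and can be set side by side. The 5 genes Rpl32, Rplp0, Rps13, Rps20 and Rps4x rose in both and the 3 genes Rpl11, Rpl26 and Rps15 fell in both. They are 80% of the calls in Atg7+/- cells and 50% of those in Atg7-/- cells, and no member was called in opposite directions. The overlap of calls was not counted over all genes, so these shares do not set the members apart. Across the 61 genes the differences had a Pearson correlation of 0.811, beside 0.746 across all genes tested, and 51 had the same sign. The points share probe sets and platform, and genes are not independent replicates.

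No member's response differed by genotype at the threshold. In the test of the difference between the rapamycin effects, none of the 61 and none of all genes was called in limma. At an unadjusted p under 0.05 there were 0 members and 1052 genes. The members nearest to it were Rpl6l, with a rapamycin effect 0.25 ± 0.12 larger in Atg7-/- cells, Rps4l, 0.44 ± 0.226 larger, and Rpl3, a protein at the peptidyl transferase centre, with -0.40 ± 0.214 (adjusted p of 0.794 to 0.797). The members called in Atg7-/- cells alone are therefore not shown to respond differently there. The median of the difference over the members was 0.0477.

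**Figure D4:**
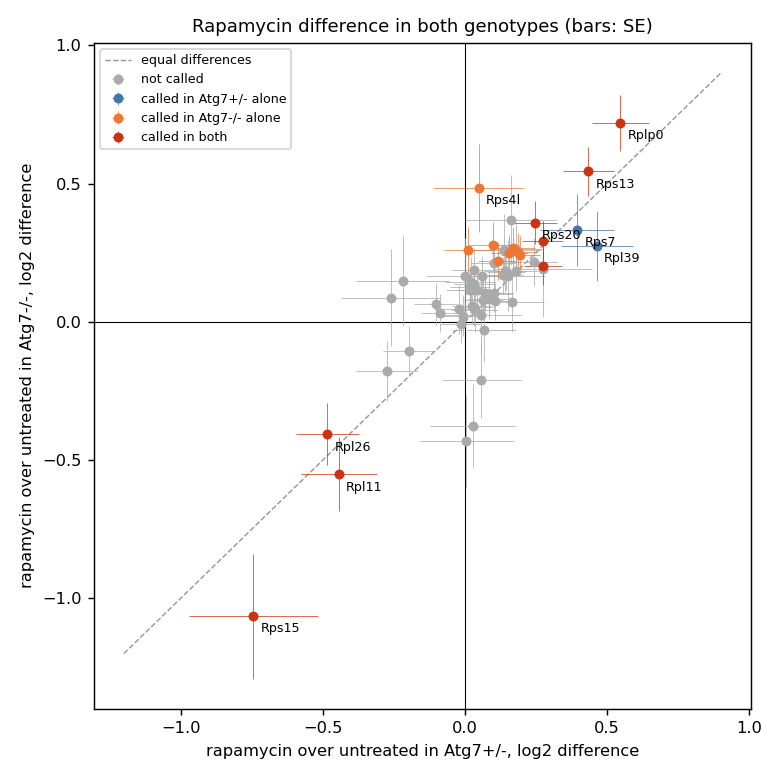
Each point is 1 of the 61 members, with its rapamycin difference and SE in Atg7+/- cells on the x axis and in Atg7-/- cells on the y axis, both on the log2 scale. The dashed line marks equal differences. The 8 members called in both genotypes lie in the upper right and lower left, and the points have a Pearson correlation of 0.811.

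The bright members mostly lay above 0 under rapamycin. At a mean signal of 10 or above, a limit chosen with the values in view, 34 members had 4 rises and no fall in Atg7+/- cells and 11 rises and no fall in Atg7-/- cells. Their rapamycin difference was above 0 in 31 and 32 of the 34, with medians of 0.0994 and 0.174 and ranges of -0.09 to 0.55 and -0.38 to 0.72. Of the 486 genes this bright, 40.74% and 45.06% were above 0, with medians of -0.0457 and -0.0271. How many of these 486 were called was not counted, so the bright members' rises have no share of like genes beside them. Over all genes tested, 6.03% rose and 8.11% fell in Atg7+/- cells, and 8.83% rose and 11.1% fell in Atg7-/- cells. The 27 dimmer members had 3 rises and 3 falls in Atg7+/- cells and 2 rises and 3 falls in Atg7-/- cells.

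Averaged per array, the bright members read 11.68 ± 0.018 (SD, n = 4) in untreated Atg7+/- cells, with a range of 11.67 to 11.71, and 11.80 ± 0.016 after rapamycin, from 11.78 to 11.81. In Atg7-/- cells they read 11.73 ± 0.028 untreated, from 11.69 to 11.76, and 11.89 ± 0.039 after rapamycin, from 11.84 to 11.93. The treated arrays of either genotype were above all untreated ones. The size depended on the scaling: with each array centred on its median over all probe sets, 21 of the 34 were above 0 in Atg7+/- cells, with a median of 0.0559, and with quantile normalization 27 were, with a median of 0.055. The dimmer members read 6.828 ± 0.028, 6.823 ± 0.068, 6.92 ± 0.049 and 6.943 ± 0.067 in the same order, with ranges that overlapped within each genotype.

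Over all 61 tested members, the highest of the 4 group means lay in Atg7-/- cells after rapamycin for 45 and the lowest in untreated Atg7+/- cells for 37. The same order was not counted over all genes. Within groups the members hardly moved together from array to array: the median pairwise correlation of deviations from the group means over 16 arrays was 0.085 for the members and 0.153 for the bright ones, against 0.396 for the mitochondrial ribosomal proteins.

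Probe sets of the same gene often disagreed. Of the 64 members, 24 had over 1 probe set. Some of these hold identical values, 6 of the 8 of Rps12, 2 of 3 of Rps19 and both of Rpl23a, which leaves 97 distinct series. Ribosomal protein genes have many processed copies in the genome, and which probes read which copy was not tested. Of the 23 genes with differing probe sets, 16 spanned over 3 log2 units of signal. The rapamycin differences had mixed signs within 11 of the 23 genes in Atg7+/- cells and within 13 in Atg7-/- cells. Signs were counted whatever the size, as in Rpl29 in Atg7-/- cells (-0.015 and 0.031). The share among other genes was not counted.

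Rpl3 and Rpl41 show what the choice of probe set does. In Atg7-/- cells the brightest probe set of Rpl3, at 11.10, differed by -0.38 (adjusted p of 0.087) while a second, at 9.39, rose by 0.57 (0.00784). Of the 5 probe sets of Rpl41, the shortest ribosomal protein, 4 stood between 11.67 and 12.30 and differed by 0.06 to 0.21, and the fifth, at 8.28, rose by 0.75 (0.000414). With the mean of a gene's probe sets in place of the brightest, 5 members rose and 3 fell in Atg7+/- cells (median 0.0595), and 10 rose and 3 fell in Atg7-/- cells (median 0.116). The direction of the mean differed from that of the brightest probe set in 6 of the 23 genes in Atg7+/- cells (Rpl27, Rpl35, Rpl4, Rpl7, Rplp0 and Rps28) and in 5 in Atg7-/- cells (Rpl27, Rpl3, Rpl9, Rps18 and Rps28).

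**Figure D5:**
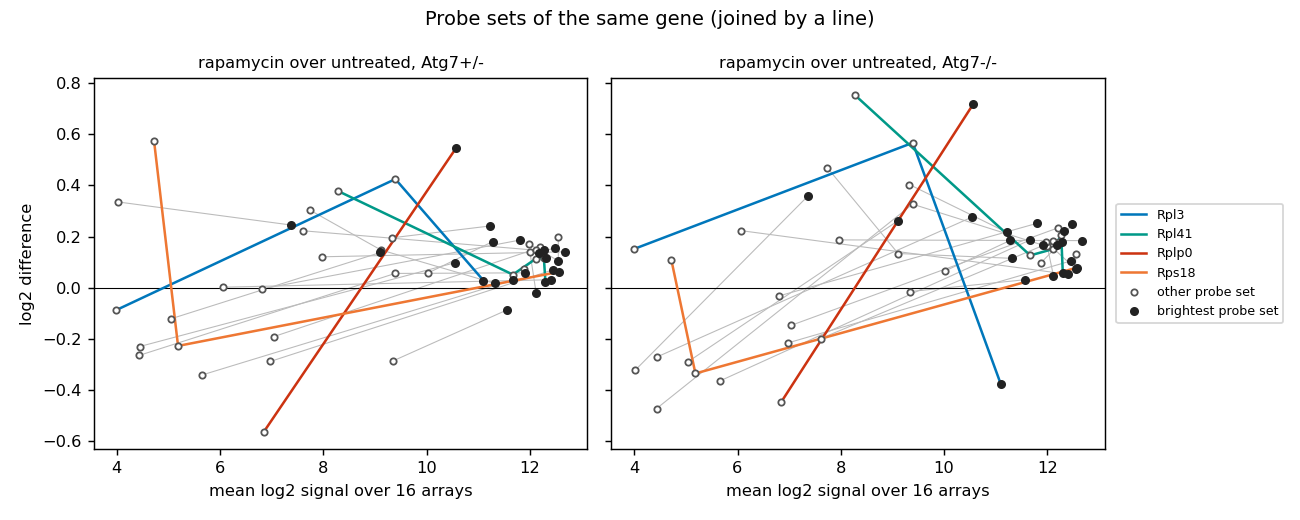
Distinct probe sets of the 23 genes with more than 1, with mean log2 signal on the x axis and the rapamycin log2 difference on the y axis, in Atg7+/- (left) and Atg7-/- cells (right). Filled points are the brightest probe set of a gene and lines join probe sets of the same gene, with Rplp0, Rpl3, Rpl41 and Rps18 in colour. The brightest probe sets lie mostly between 0 and 0.3, and dimmer ones scatter to both sides.

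Genes that work with the ribosomal proteins gave these counts, all from limma with p adjusted over all genes, of which rapamycin changed 14.1% in Atg7+/- cells and 20.0% in Atg7-/- cells. Of the paralogues, Rpl22l1, a relative of Rpl22, rose by 0.54 ± 0.127 in Atg7+/- cells (adjusted p of 0.00949) and 0.50 ± 0.127 in Atg7-/- cells (0.0108). It read 4.35 to 4.48 untreated and 4.80 to 5.12 treated in Atg7+/- cells, and 4.15 to 4.31 against 4.29 to 5.02 in Atg7-/- cells. Only the last pair overlapped.

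Of 33 translation initiation factors, none rose and 6 fell in Atg7+/- cells and 2 rose and 4 fell in Atg7-/- cells, 18.2% in each, near those shares, with medians of -0.10 and -0.07. Eif4h, a helper of the RNA helicase Eif4a, fell by 0.67 ± 0.0829 and 0.53 ± 0.0829 (adjusted p of 8.1e-05 and 0.000354). Eif4e, which binds the mRNA cap, fell by 0.34 ± 0.0754 and 0.31 ± 0.0754 (0.00691 and 0.00721). Eif5b, which joins the subunits, fell by 0.34 ± 0.0789 and 0.40 ± 0.0789 (0.00918 and 0.0019). In Atg7-/- over Atg7+/- cells under rapamycin 3 were higher and none lower, 9.09% beside 3.24% of all genes. They were Eif1b by 0.49, Eif3e by 0.38 and Eif3k by 0.37 (adjusted p from 0.0144 to 0.0208).

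Of 11 elongation factors, 1 rose and 1 fell in Atg7+/- cells and 1 rose and 3 fell in Atg7-/- cells, 18.2% and 36.4%. Eef1b2, a TOP gene that recharges elongation factor with GTP, rose by 0.27 ± 0.0692 and 0.21 ± 0.0692 (adjusted p of 0.0146 and 0.0404). Eef1e1, which belongs to the complex of tRNA synthetases, fell by 0.44 ± 0.0855 and 0.41 ± 0.0855 (0.00282 and 0.00286). Of 14 other genes with TOP mRNAs, which share Eef1b2 and others with that list, 2 rose in Atg7+/- cells and 1 in Atg7-/- cells and none fell (14.3% and 7.14%), and Snhg5, a host of small nucleolar RNAs, rose by 0.34 ± 0.0833 in Atg7+/- cells (0.0118).

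Of 21 genes that carry ribosomal proteins into the nucleus or assemble the large subunit, none rose and 2 fell in Atg7+/- cells, and 1 rose and 4 fell in Atg7-/- cells (9.52% and 23.8%), with medians of -0.155 and -0.14. Heatr3, which in human cells escorts Rpl5, fell by 0.53 ± 0.0806 and 0.57 ± 0.0806 (adjusted p of 0.00044 and 0.000133). In Atg7-/- cells the importin gene Ipo7 fell by 0.30 ± 0.0766 (0.0117) and Nop53 rose by 0.32 ± 0.0888 (0.017). Under rapamycin 3 were higher in Atg7-/- than in Atg7+/- cells and none lower, 14.3% beside 3.24% of all genes. Among them were Rpf2, which places Rpl5, Rpl11 and their RNA in the large subunit, by 0.42 ± 0.0928 (0.0208), and Grwd1, by 0.38 ± 0.0989 (0.0447).

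Of 17 genes of mTORC1 and of TOP mRNA control, 1 rose in Atg7+/- cells, Tia1, an RNA-binding repressor, by 0.27 ± 0.0849 (adjusted p of 0.044), and 1 fell in Atg7-/- cells, Rps6kb2, an S6 kinase, by 0.39 ± 0.116 (0.0255), 5.88% each. Mtor differed by 0.02 ± 0.0843 and -0.06 ± 0.0843 (0.885 and 0.636) and Larp1 by -0.20 ± 0.0765 and -0.17 ± 0.0765 (0.0915 and 0.128). Of 71 mitochondrial ribosomal proteins, 4 rose and 3 fell in Atg7+/- cells and 14 rose and 3 fell in Atg7-/- cells (9.86% and 23.9%), with medians of -0.048 and 0.082.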

How the data were processed

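The authors deposited log2 signals, with 1 value for each probe set on each array. The submitters' processing notes list RMA and Partek 6.6 and give no settings for either. The file does not state its logarithm base, which was taken as 2 because RMA uses it. The build and annotation release were not given in the sources used here.

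Probe sets with 1 symbol in GEO's platform annotation (23521 of 41345) stood for 22180 genes. The probe set with the highest mean was used per gene, and the test was run on the 16760 genes with a highest group mean over 3.549 (percentile 30 of all values). limma 3.58.1 under R 4.3.3 (lmFit and eBayes, 1 mean per group, 16 arrays) was tested on simulated data and then run. Tests were two-sided with Benjamini-Hochberg adjustment, and calls needed an adjusted p under 0.05. The number of arrays limits the precision.

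Genes were named by rule: Rplp0, Rps6, Rpl5 and Rpl11 always, up to 8 risers and 8 fallers per comparison, the 5 brightest and dimmest members, and up to 4 called genes per other list. Per-array values were given for called members with groups apart and a difference of at least 0.3. Those of Rps6, not called, and Rps4l, whose groups overlapped, were given outside that rule. Other genes were named after their values were seen. Members and lists were chosen with earlier results of these data known. Alternatives changed the probe set rule, filter, normalization, length trend, variance model, array weights, samples in the fit and replicate block, or left out 1 array.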

Additional observations from a re-analysis of the deposited data

Results flagged for a closer look

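In 88 groups of 4 arrays (21 named genes and the mean of all members), 5 held an array whose gap to the nearest other exceeded Dixon's 95% limit as a share of the group's range, which chance passes in about 1 in 20 groups. Rpl32 had 1 array at 12.57 in Atg7+/- cells after rapamycin, beside 12.46 to 12.47 on the others. Rpl7 had 1 at 10.59 in untreated Atg7+/- cells, beside 10.39 to 10.41. Rpl8 had 1 at 11.44 in Atg7+/- cells after rapamycin, beside 11.62 to 11.66. Rps13 had 1 at 10.82 in untreated Atg7+/- cells, beside 10.97 to 10.99, and 1 at 11.35 in Atg7-/- cells after rapamycin, beside 11.52 to 11.54.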

How the results depend on the processing

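Each array left out in turn gave 0 to 0 called members for genotype without rapamycin (medians 0.0418 to 0.0633), 0 to 3 under rapamycin (0.0791 to 0.106), 4 to 10 for rapamycin in Atg7+/- cells (0.0622 to 0.0913), 10 to 17 in Atg7-/- cells (0.118 to 0.164) and 0 to 0 for the difference of the rapamycin effects (0.0364 to 0.0596). The 4 came without replicate 1 of untreated Atg7+/- cells, 6 without its replicate 4 or without replicate 2 or 4 of treated Atg7+/- cells, and 10 without replicate 2 of treated Atg7-/- cells. Genotype under rapamycin had 0 without replicate 1, 2 or 4 of treated Atg7+/- or 3 of treated Atg7-/- cells. With trend and robust options the calls were 1, 9, 19 and 26 for the 4 comparisons in that order. With the arrays of 2 groups alone they were 0 for genotype under rapamycin and 7 for rapamycin in Atg7-/- cells. Genotype under rapamycin had 1 call with no filter, median centring, the length trend removed or array weights, and 4 with a stricter filter. Rapamycin in Atg7+/- cells had 6 calls with median centring, 3 up and 3 down, and 12 up and 2 down with the length trend removed, and in Atg7-/- cells quantile normalization gave 8 up and 4 down. Medians with the length trend removed were 0.0184, 0.046, 0.107 and 0.177. Median centring gave 0.147 for genotype under rapamycin, 0.0223 for rapamycin in Atg7+/- cells and 0.109 for the difference of effects, and quantile normalization gave rapamycin medians of 0.025 (Atg7+/-) and 0.103 (Atg7-/-). The mean of probe sets turned Rplp0 in Atg7+/- cells to -0.00895. Bright members in Atg7-/- cells had medians of 0.136 with the mean of probe sets and 0.109 with quantile normalization, and in Atg7+/- cells 0.141 with the length trend removed. The medians of the 4 comparisons stayed above 0 in every alternative run. The causes were not tested. With the replicate block, calls were 0, 2, 9 and 15, and medians 0.0509, 0.0884, 0.0658 and 0.145. Same-numbered arrays of different groups deviated together with a median correlation of 0.023 (-0.0829 to 0.358, over 0.1 in 6 of 24 pairs). For arrays with different numbers the median was -0.00927 (-0.303 to 0.236, over 0.1 in 7 of 72 pairs). Whether equal numbers mark paired samples is not stated and cannot be told from these correlations.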
